A study of Homo sapiens with 2 samples.

Results

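Described here are 10 mature microRNAs (miRNAs) that the literature links to cell invasion or to hypoxia: miR-21-5p, miR-10a-5p, miR-10b-5p, miR-31-5p, miR-221-3p, miR-222-3p, miR-182-5p, miR-183-5p, miR-96-5p and miR-210-3p. They were taken by accession from a table of 1001 array rows. The rule uses no measured value, but the members were chosen with earlier results of these data known. Of the 10, 9 had an intensity on both arrays and 1, miR-31-5p, had none on either.

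The study profiled mature miRNAs in Huh7, an established human hepatocellular carcinoma line, on 2 single-colour arrays. The first array held RNA of control cells and the second RNA of cells exposed to 10 µM Y27632 for 12 hours. Both came from cells kept in serum-supplemented Dulbecco's medium. The labels attach the Y27632 treatment text to both samples, so the control is identified by its title and the series design alone, and every ratio rests on that title. No source used here gives the control's vehicle or its harvest time, and a difference in either cannot be told apart from one due to the compound. With 1 array per condition, no value has a replicate error, no test was possible, and every ratio describes this pair of arrays and not the conditions.

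Y27632 inhibits the kinases ROCK1 and ROCK2, which drive actomyosin contraction, stress fibre assembly and cell movement. A miRNA guides an Argonaute protein to messenger RNAs, mainly by pairing of its seed (bases 2 to 8 from its 5′ end), and lowers their stability and translation. Several of these 10 miRNAs are known to act on cell movement, matrix turnover or cell cycle inhibitors in tumours, and miR-210-3p is induced by hypoxia-inducible factor.

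The mature sequences are shown because the seed sets which transcripts each miRNA can pair with, and miRNAs with the same seed can share targets. RefSeq's annotation (GRCh38.p14) gave a mature sequence for 9 of them, printed 5′ to 3′ with the seed in capitals.
miR-21-5p: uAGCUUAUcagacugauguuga
miR-10a-5p: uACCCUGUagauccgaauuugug
miR-31-5p: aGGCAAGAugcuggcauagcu
miR-221-3p: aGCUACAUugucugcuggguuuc
miR-222-3p: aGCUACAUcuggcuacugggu
miR-182-5p: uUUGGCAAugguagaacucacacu
miR-183-5p: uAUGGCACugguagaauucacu
miR-96-5p: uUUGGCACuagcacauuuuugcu
miR-210-3p: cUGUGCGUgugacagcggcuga

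These 9 sequences, which do not include miR-10b-5p, held 8 distinct seeds. Among the 9, miR-221-3p and miR-222-3p shared a seed. Their first 8 bases were identical, whereas 11 of the 21 bases compared without gaps were. The seed of miR-10b-5p was not compared, so whether miR-10a-5p or another of the 9 shares it is not given here. Among the 2370 mature names of the RefSeq table, miR-590-5p had the seed of miR-21-5p and miR-1271-5p that of miR-96-5p. The miR-182-5p and miR-96-5p sequences began with the same 7 bases and parted at the last base of the seed. Over 22 bases compared without gaps, miR-182-5p and miR-183-5p were identical at 18. Their longest common stretch, ugguagaa, lay outside the seed of either.

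The hairpins of miR-183, miR-96 and miR-182 lie in 1 cluster on the minus strand of chromosome 7 (GRCh38.p14). MIR183 spans chr7:129774905-129775014, MIR96 spans chr7:129774692-129774769 and MIR182 spans chr7:129770383-129770492, with 135 bases between the first pair and 4199 between the last. MIR221 (chrX:45746157-45746266) and MIR222 (chrX:45747015-45747124) are separated by 748 bases and both lie within the span of the non-coding RNA gene MIR222HG. MIR21 (chr17:59841266-59841337) lies within the span of VMP1, MIR10A (chr17:48579838-48579947) within that of HOXB3, MIR31 (chr9:21512115-21512185) within that of MIR31HG, and MIR210 (chr11:568089-568198) within that of MIR210HG. MIR10B spans chr2:176150303-176150412, inside no other annotated gene apart from miRNA genes. Exons and introns of the overlapping genes were not examined.

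The table gives 1 value per probe and array, read here as intensity on a linear scale. It lists 619 probes for the control and 614 for Y27632, of which 519 have a value on both. Intensities ran from 2.3 to 45829.6 in the control and from 2.7 to 43198.2 after Y27632, with medians of 6.0 and 6.1. Probes differ in how strongly they bind and label, so an intensity ranks a probe by brightness and not a miRNA by abundance. Marker miRNAs of hepatocytes and of other cell types were not evaluated, because no table used here pairs their names with accessions. Ratios below divide the Y27632 value by the control value as deposited.

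None of the 9 listed miRNAs differed by 1.5-fold or more between the arrays. At that limit, 0 were higher and 0 lower, beside 8.86% of the 519 probes higher and 5.39% lower. At 2-fold the counts were again 0 and 0, beside 2.5% higher and 0.578% lower. With only 9 miRNAs, counts of 0 do not set them apart from shares this small. These shares also mix bright and dim probes. Among the 260 probes with a geometric mean intensity of at least 7.57, which include 6 of the 9, 0 were at least 2-fold higher and 1 lower. Over the 9, log2 ratios ran from −0.47 (miR-182-5p) to 0.21 (miR-10a-5p). Their median was −0.05, beside 0.00 over all 519 probes. Of the 9, 5 read lower after Y27632 and 4 higher, where 48.9% of all probes read lower.

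**Figure D1:**
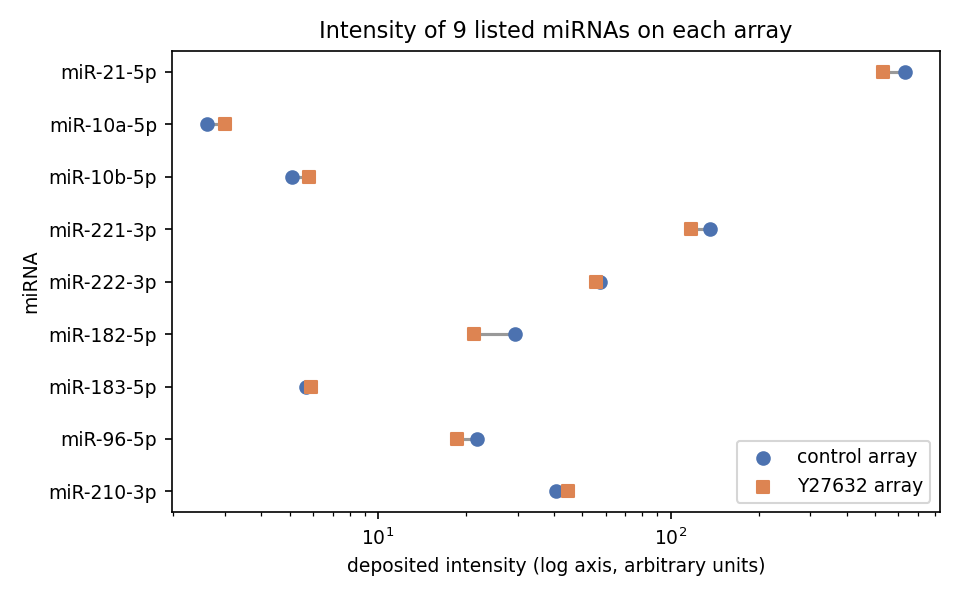
Deposited intensity (log axis, arbitrary units) of the 9 listed miRNAs, with 1 point for the control array and 1 for the Y27632 array. The miR-182-5p points, at 29.5 and 21.3, lie farthest apart, and miR-21-5p is the brightest at 631.7 and 530.0.

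The directions are given by brightness, as deposited. Of the 6 miRNAs in the brighter 50% of probes (geometric mean intensity of at least 7.57), 5 read lower after Y27632 and only miR-210-3p read higher. Among all 260 probes of that brightness, 55.8% read lower. The median log2 ratio of the 6 was −0.22, and that of the 260 was −0.03. Of the 5 that read lower, miR-222-3p was at −0.05 as deposited and at 0.02 after quantile normalization. All 3 of the dim miRNAs (miR-10a-5p, miR-10b-5p and miR-183-5p) read higher, where 53.7% of the 259 dimmer probes did. Of these 3, only miR-10b-5p stayed above 0 under all 5 alternative scalings: miR-10a-5p was at −0.07 after quantile normalization and −0.06 after lowess correction, and miR-183-5p at −0.09 with each array's lowest value subtracted. Ratios of dim probes were more spread, with a standard deviation across probes of 0.47 in log2 units, against 0.27 in the brighter 50%.

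**Figure D2:**
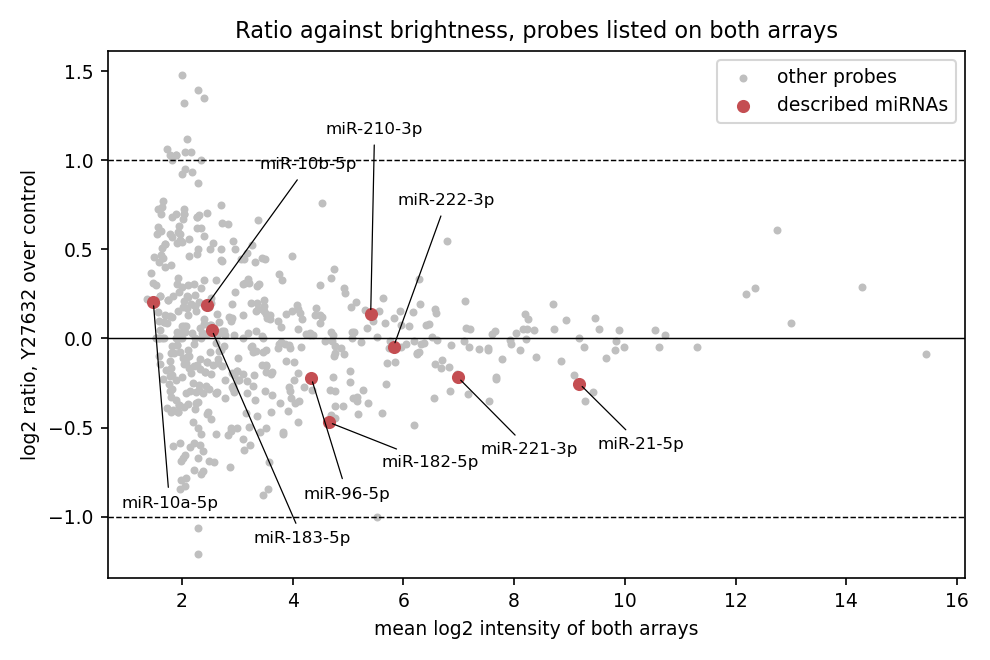
Log2 ratio of Y27632 over control against mean log2 intensity for the 519 probes listed on both arrays, each a grey point, with the 9 miRNAs in red and dashed lines at 2-fold. The red points lie between −0.47 and 0.21, inside both dashed lines, while grey points fan out toward low intensity.

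miR-21-5p (MIMAT0000076), which represses the tumour suppressor PDCD4 and is abundant in many carcinomas, had an intensity of 631.7 in control cells and 530.0 after Y27632. It ranked 20 of the 619 listed control probes and 22 of the 614 Y27632 probes. The Y27632 value was thus 0.839 times the control value, a log2 ratio of −0.25. As a scale for such a value, the ratio was set beside those of the 100 probes nearest in mean log2 intensity: 88 had a higher ratio and 12 a lower one. Bright neighbours are scarce, and these 100 ran in geometric mean intensity from 38.4 to 8210.

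miR-221-3p and miR-222-3p repress the cell cycle inhibitor CDKN1B (p27) and are raised in many liver tumours. The intensity of miR-221-3p (MIMAT0000278) was 136.4 in the control and 117.3 after Y27632, a log2 ratio of −0.22, with 82 of its 100 neighbours in brightness above that ratio. That of miR-222-3p (MIMAT0000279) was 57.5 and 55.7, a log2 ratio of −0.05, near the middle of its neighbours (57 above and 43 below). Both read lower after Y27632, and their log2 ratios differed by 0.17 in size (−0.17 as miR-221-3p minus miR-222-3p). The robust standard deviation (scaled median absolute deviation) of neighbouring ratios was 0.16 for miR-221-3p and 0.22 for miR-222-3p. These are spreads of single ratios. A difference between ratios of unrelated probes spreads more widely, so they give no direct scale for the gap inside the pair.

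miR-182-5p, miR-96-5p and miR-183-5p are made from neighbouring hairpins and are known for roles in sensory organs and for repressing FOXO transcription factors in tumours. The intensity of miR-182-5p (MIMAT0000259) was 29.5 in the control and 21.3 after Y27632. This was the largest difference among the 9, at 0.722 times the control value or a log2 ratio of −0.47, and its rank moved from 123 to 143. Of its 100 neighbours, 95 had a higher ratio, and it was the only one of the 9 outside the 5th to 95th percentile of its neighbours, whose lower end was −0.45. By construction that range leaves out about 5% of neighbours at each end. A single miRNA of the 9 outside it is near the share left out.

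The intensity of miR-96-5p (MIMAT0000095) was 21.8 in the control and 18.7 after Y27632, a log2 ratio of −0.22, which lay within the middle 50% of its neighbours (−0.29 to 0.12). miR-183-5p (MIMAT0000261) was dim on both arrays, at 5.7 and 5.9, with a log2 ratio of 0.05. As deposited, miR-183-5p read slightly higher and the other two lower, but its log2 ratio was 0.00 after quantile normalization and −0.09 with each array's lowest value subtracted, where all 3 read lower. The log2 ratio of miR-182-5p was below that of miR-183-5p by 0.52 (−0.52 as a difference) and below that of miR-96-5p by 0.25 (−0.25). The robust standard deviation of probes as dim as miR-183-5p was 0.44, and probes as bright as miR-182-5p had 0.28. These too are spreads of single ratios. A difference between ratios of unrelated probes spreads more widely than either, so the gaps do not show a divergence inside the cluster.

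**Figure D3:**
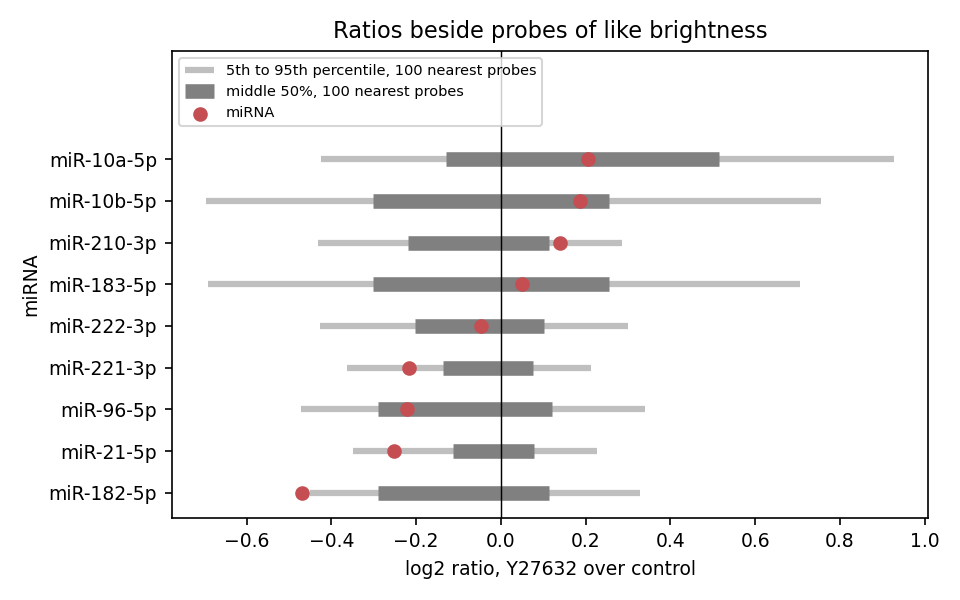
Log2 ratio of Y27632 over control for each of the 9 miRNAs (red point), with the 5th to 95th percentile (light bar) and middle 50% (dark bar) of the 100 probes nearest in brightness. Of the 9 points, 8 lie within the light bar and 5 within the dark bar, and miR-182-5p at −0.47 lies just past the lower end at −0.45. By construction the light bar leaves out about 5% of neighbours at each end.

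miR-10a-5p and miR-10b-5p come from the HOX gene clusters. Their sequences are nearly identical, so a probe for either may also bind the other, which was not tested. In breast cancer cells miR-10b-5p is known to repress HOXD10, a repressor of genes for cell migration. The intensity of miR-10b-5p (MIMAT0000254) was 5.1 in the control and 5.8 after Y27632, a log2 ratio of 0.19. That of miR-10a-5p (MIMAT0000253) was 2.6 and 3.0, a log2 ratio of 0.21. miR-10a-5p lay close to the lowest value listed on each array, 2.3 for the control and 2.7 for Y27632, and exceeded it by the same amount on both. miR-10b-5p lay near the medians of 6.0 and 6.1. Rounding to 1 decimal alone allows the log2 ratio of miR-10a-5p to be between 0.15 and 0.26. Both miRNAs fell within the middle 50% of their neighbours.

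miR-31-5p (MIMAT0000089) is known in breast cancer cells to repress genes for cell movement and invasion. It had no value on either array, as was the case for 287 of the 1001 rows (28.7%). No source used here states what an empty cell means, so neither a level nor an absence is given for it.

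miR-210-3p (MIMAT0000267) is the best known miRNA induced by hypoxia and represses the iron-sulphur cluster scaffold ISCU. Its intensity was 40.5 in the control and 44.6 after Y27632, a log2 ratio of 0.14 or 10.1% higher. It was the brightest of the 4 miRNAs that read higher, and its rank moved from 102 to 97. Of its 100 neighbours, 79 had a lower ratio and 21 a higher one, which placed it above their middle 50% (−0.22 to 0.11) and below their 95th percentile of 0.28. Its log2 ratio exceeded that of miR-21-5p by 0.39 (−0.39 as miR-21-5p minus miR-210-3p).

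For 6 of the 9 miRNAs the sign of the ratio did not depend on how the values were scaled. miR-21-5p, miR-221-3p, miR-182-5p and miR-96-5p read lower, and miR-210-3p and miR-10b-5p higher, on the deposited values and under all 5 alternatives that altered the values. The log2 ratio of miR-182-5p stayed between −0.55 and −0.41 over these settings, while that of miR-21-5p moved from −0.25 to −0.12 under quantile normalization. The signs of miR-10a-5p, miR-222-3p and miR-183-5p depended on the setting.

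**Figure D4:**
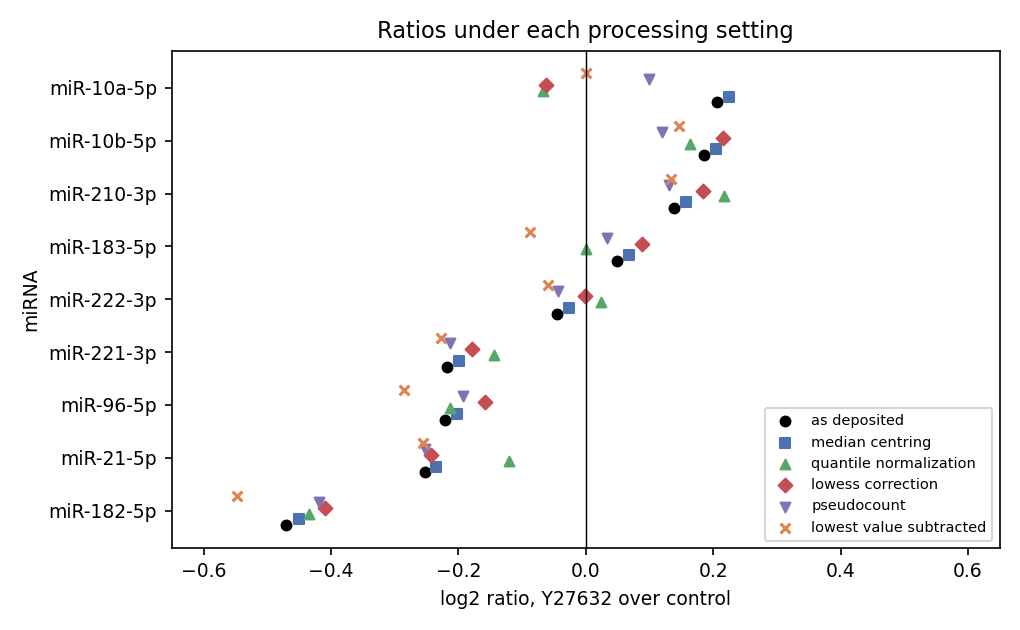
Log2 ratio of Y27632 over control for each of the 9 miRNAs as deposited and under 5 alternatives (median centring, quantile normalization, lowess correction, a pseudocount, and subtraction of each array's lowest value), with 1 symbol per setting. Symbols of miR-10a-5p, miR-183-5p and miR-222-3p lie on both sides of 0 and those of the other 6 on 1 side.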

How the data were processed

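The authors deposited 1 table of intensity values for both arrays. Per the labels' protocols, total RNA was isolated with ISOGEN and labelled with the dye Hy5 by an Exiqon miRCURY LNA kit. The sources used here state neither the background correction and normalization nor the meaning of empty cells, and scanner files were not used. A linear intensity scale is inferred from the deposited values, which are positive, given to 1 decimal and long-tailed.

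The log2 ratio of Y27632 over control was computed with no pseudocount or further scaling. Neighbours were the 100 other probes nearest in mean log2 intensity. Groups came from the sample titles, since the treatment text is the same for both samples. The number of arrays limits the precision. The members and lists were chosen with earlier results of these data known. Accessions were paired with names in the definition of the set. No table used here pairs the others, so opposite arms, further pathway lists and markers were not evaluated, and with 2 arrays no likeness of pattern was ranked. All 10 members are named. Median centring, quantile normalization and lowess were run on simulated data without noise, carrying a planted shift with brightness. That does not show how well they suit these arrays, and the pseudocount and the subtraction were not simulated. Sequences and loci are from RefSeq (GRCh38.p14). Alternatives were median centring, quantile normalization, lowess (fraction 0.4), a pseudocount of 3 (mean of both arrays' 10th percentiles), subtraction of each array's lowest value, a 1.5-fold limit, the brighter 50% and ranks over shared probes. Python 3.11.15, numpy 2.4.6, pandas 2.3.3, statsmodels 0.14.6 and matplotlib 3.10.9 were used.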

Additional observations from a re-analysis of the deposited data

How the results depend on the processing

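The counts of the 9 miRNAs at or past 2-fold were 0 higher and 0 lower as deposited and under all 7 alternatives run for them. The 7 include a 1.5-fold limit in place of 2-fold. They also include the brighter 50% alone, which kept 6 of the 9 and could only give 0. All 45 log2 ratios under the 5 alternatives that altered values moved by less than 1 robust standard deviation of the neighbours. That limit is a spread across probes and not an error of processing, and it is wide. For miR-10a-5p it was 0.49, beside a log2 ratio of 0.21 as deposited, so a turned sign stayed within it. For miR-21-5p it was 0.14, and the move from −0.25 to −0.12 under quantile normalization stayed within it. The sign turned for miR-10a-5p after quantile normalization (−0.07) and lowess correction (−0.06), and its ratio became 0 when each array's lowest value was subtracted. It turned for miR-222-3p after quantile normalization (0.02) and for miR-183-5p after subtraction (−0.09). The cause was not tested. Over all probes, where 13 were at least 2-fold higher and 3 lower, quantile normalization left 5 higher, lowess left 8 higher, and the pseudocount left 0 higher and 0 lower. Subtraction gave 54 higher and 65 lower over the 517 probes left, a 1.5-fold limit 46 and 28, and the brighter 50% 0 and 1. Subtraction moved the median log2 ratio of all probes to −0.08, the largest shift among the 5. Signal over background could not be examined. Log2 ratios were more spread across the dimmer 50% of probes (standard deviation 0.47) than across the brighter 50% (0.27). That spread does not measure the precision of a probe. Leaving out a replicate needs more arrays than were made. No paired analysis was possible because there is a single array for control and for Y27632.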
